A study of Mus musculus with 6 samples.

Results

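The 26S proteasome is the large protease that breaks down proteins tagged with ubiquitin. Its constitutive subunits were taken by gene symbol, as Psma1 to Psma7, Psmb1 to Psmb7, Psmc1 to Psmc6 and Psmd1 to Psmd14, without the inducible subunits. All 34 symbols were among the 23366 genes of the table. RNA of brain cortex, which the study's text calls frontal cortical tissue, was sequenced from 3 littermate control mice (A1, A2, A3) and 3 depleted mice (A4, A5, A6), all on a C57BL/6 background, with 1 library per mouse. Depleted mice were CX3CR1-CreERT2+/- iDTR+/-, which carry a tamoxifen-inducible Cre driven by the CX3CR1 promoter and a diphtheria toxin receptor that Cre switches on. Tamoxifen and then diphtheria toxin were given, and cortex was taken at d10 after depletion. Control mice were CX3CR1-CreERT2+/- without iDTR, so that the Cre allele was common to both groups. The methods describe the mice as age-matched and sex-matched and as injected with tamoxifen, give no age, and do not state whether the control mice of this experiment received toxin, so toxin and depletion cannot be told apart here. The Cre driver is active in cells that express CX3CR1, which include blood monocytes as well as microglia. The study describes an interval between tamoxifen and toxin in which blood monocytes are renewed from cells that did not recombine.

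The proteasome has a barrel-shaped 20S core, in which alpha subunits form the outer rings and gate the entrance and beta subunits form the inner rings and hold the cutting sites. A 19S regulatory particle caps the core. The ATPases of its base unfold proteins and feed them into the core, other base subunits dock ubiquitin carriers, and its lid removes the ubiquitin chain. In neurons the proteasome is known for the turnover of synaptic proteins. Cells exposed to interferon replace the constitutive catalytic subunits with inducible ones, which changes the peptides that are made.

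The deposited values were FPKM, fragment counts scaled by transcript length and library size, so levels can be compared between genes. The spacing of low FPKM values gave depths of about 14.6 M (A1), 20.4 M (A2) and 18.4 M (A3) fragments in control, and 13.7 M (A4), 3.56 M (A5) and 11.2 M (A6) in depleted mice. For A5 a depth of 7.12 M fitted the spacing less well (score 0.582 against 0.642, the mean cosine of the values at that spacing), so this depth is uncertain. The depth of A1 is uncertain too, with a score of 0.571 at the higher depth tried against 0.616. For A2 and A3 this check could not be made, as the higher depth lay beyond the range searched. At the depths given a proteasome gene rested on an estimated 63 to 1168 fragments in A5, the shallowest library. At these depths the median counting error of the 34 genes was 5.22% of the level in A5 and 2.23% in A2, the deepest library. This covers counting error only. At the higher depth the value for A5 would be 3.69%. Groups were compared with limma on log2(FPKM + 1), and fold changes are given on that log2 scale, which understates the change of low genes.

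Some libraries stood apart in genes outside the proteasome. Xist, an RNA of the inactive X chromosome, was at 4.74 FPKM in A3 and between 30.9 and 46.7 FPKM in the other 5 mice, and the Y-linked genes Ddx3y, Eif2s3y, Kdm5d and Uty summed to 5.56 FPKM in A4 and to at most 0.160 FPKM elsewhere. The 9 interferon response markers, of which Ifit3 was the most abundant, summed to 38.9, 27.8 and 29.9 FPKM in A1 to A3 and to 398.37, 78.4 and 75.3 FPKM in A4 to A6, and A4 stood far above the rest. Each of the 9 had a higher mean in depleted mice.

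Microglia are the cells the model removes, and the study calls those sorted at d10 repopulated. Microglia were looked for through 5 markers, and 1 more of the list was not analysed here. Their summed level was 53.1, 45 and 45.8 FPKM in the control and 60.2, 41.2 and 52.4 FPKM in the depleted mice, so the groups overlapped, with A4 the highest and A5 the lowest, and none of the 5 was at 0 in any mouse. Csf1r, a growth factor receptor gene of myeloid cells, was the most abundant. P2ry12, a purine receptor of resting microglia, was at 9.57, 10.2 and 8.50 FPKM in control and 7.18, 6.45 and 7.91 FPKM in depleted mice, with the depleted mice below every control mouse. Aif1, which encodes the myeloid protein Iba1, was at 6.49, 6.30 and 5.88 FPKM and 14.3, 7.34 and 12.8 FPKM, with the depleted mice above. On average 3 of the 5 markers were higher in depleted mice. In bulk tissue fewer cells of a type and less RNA per cell cannot be told apart.

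The other marker lists describe the tissue. The 7 markers of excitatory and cortical neurons, led by Snap25, summed to 1848, 2146 and 1828 FPKM in control and 1844, 2011 and 1964 FPKM in depleted mice, and the 3 markers of inhibitory neurons, led by Gad1, to 195, 191 and 193 and 188, 199.7 and 187 FPKM. Both lists overlapped between the groups, and none of these 10 genes was at 0. The 5 oligodendrocyte markers, led by Mbp, summed to 2966, 2757 and 2723 FPKM and 2433, 2391 and 2459 FPKM, and every one was lower on average in depleted mice. For the 5 astrocyte markers, led by Slc1a2, the sums were 479, 429 and 443 and 600.0, 472 and 452 FPKM, and Gfap alone of the 5 was higher on average in depleted mice. The 4 endothelial markers, led by Ly6c1, summed to 34.3, 37.9 and 41.0 and 45.4, 43.5 and 41.1 FPKM, all higher on average in depleted mice.

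Markers of tissue next to the cortex also differed between libraries. The 4 choroid plexus markers, led by Ttr, summed to 178, 320.4 and 164 FPKM in control and 67.9, 42.9 and 63.2 FPKM in depleted mice, and each of the 4 had a lower mean in depleted mice. The 3 hypothalamic peptide genes, led by Pmch, summed to 65.3, 66.3 and 95.5 and 49.7, 40.3 and 63.3 FPKM, with 1 of the 3, Agrp, higher on average in depleted mice and at 0 in A2. Haemoglobin RNA, summed over the 4 genes of the list that were found in the table, was 86.7, 57.3 and 104 and 14.4, 82.9 and 103 FPKM, led by Hba-a1, with A4 the lowest. The part of cell type makeup, dissection, sex-linked genes or depth in the proteasome values was not tested.

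Proteasome RNA was abundant in every mouse. The 34 genes together made up 0.639, 0.618 and 0.640% of all FPKM in A1 to A3 and 0.718, 0.661 and 0.669% in A4 to A6, so each depleted mouse lay above each control mouse in this share. Their median level lay between 70.2 FPKM in A1 and 79.0 FPKM in A6. All 34 passed the filter, a mean FPKM of 0.5 or more across all mice without regard to group, and 14385 genes were tested in all, with a median mean level of 9.27 FPKM against 76.2 FPKM for the proteasome genes.

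**Figure D1:**
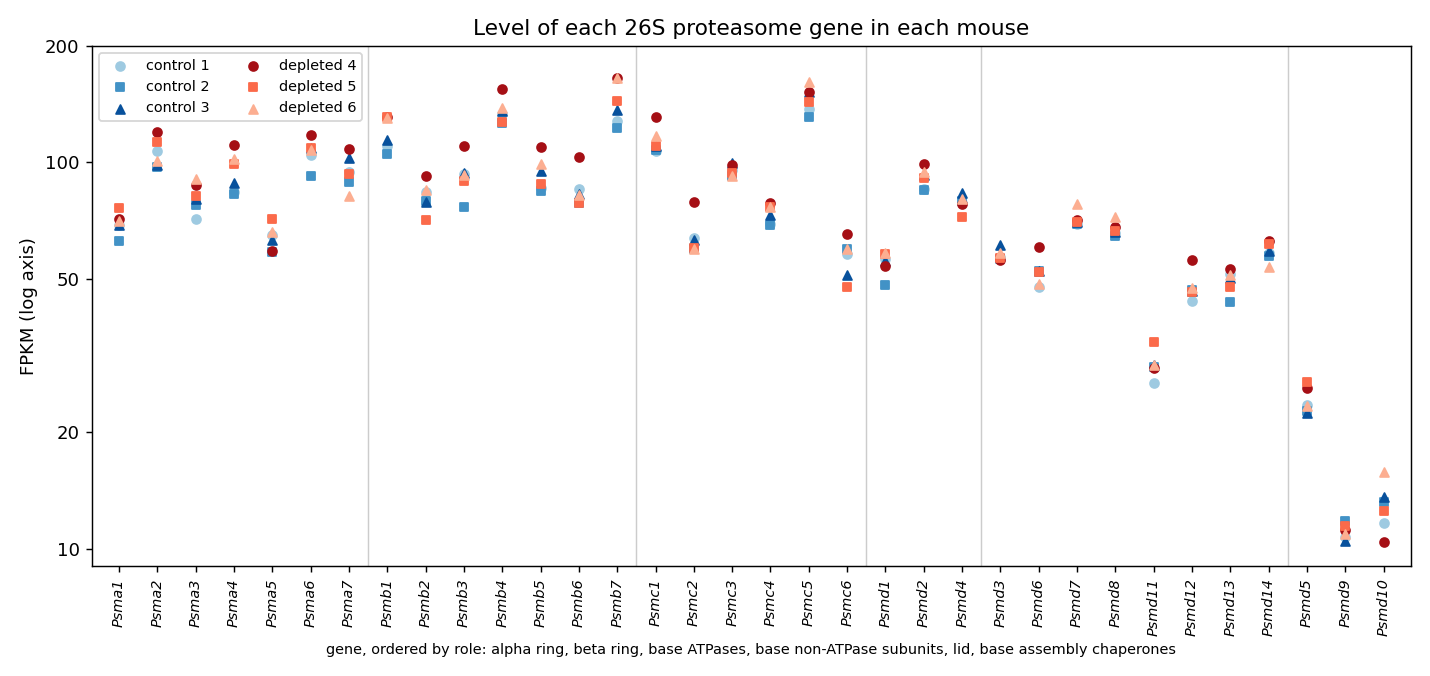
FPKM of each of the 34 proteasome genes (log axis) in each of the 6 mice, with control mice in blue and depleted mice in red; genes are ordered by role, and grey lines part the roles. The beta ring lies above the lid on average, and Psmd5, Psmd9 and Psmd10, which help to assemble the base, lie lowest.

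The levels followed a nearly steady order. Psmc5, an ATPase of the base, had the highest mean over the 6 mice at 146 FPKM, followed by the beta subunit genes Psmb7 at 143, Psmb4 at 136 and Psmb1 at 120.2 FPKM and the ATPase gene Psmc1 at 114 FPKM. Over the mice Psmc5 ran from 131 to 161 FPKM and Psmb7 from 123 to 165 FPKM. Within mice, Psmc5 was the higher of the pair in every control mouse and Psmb7 in every depleted mouse. This change of order was not tested. The lowest were Psmd9 at 11.1, Psmd10 at 12.9 and Psmd5 at 24.2 FPKM. These 3 encode chaperones that hold ATPase subunits during assembly and leave before the particle is complete. Among the 31 subunits of the finished particle the lowest was the lid gene Psmd11 at 29.9 FPKM, and the highest mean was 4.89 times the lowest, against 13.2 times over all 34 genes.

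By role, the median of the gene means was 94.3 FPKM in the alpha ring, 93.6 FPKM in the beta ring and 84.5 FPKM among the base ATPases. It was 78.5 FPKM for the other base subunits, 54.8 FPKM for the lid and 12.9 FPKM for the chaperones. The 8 lid genes lay between 29.9 and 71.2 FPKM, and all 7 beta ring genes lay above that range, from 81.7 to 143 FPKM. The order of the 34 genes was nearly the same in every mouse, with Spearman's rho across genes between 0.956 and 0.990 over the 15 pairs of mice; genes are not independent replicates, and the pairs share gene length and base composition.

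Psmc5 was at 137, 131 and 152 FPKM in A1 to A3 and at 152, 143 and 161 FPKM in A4 to A6. A6 was the highest, and the groups overlapped because A3 lay above A5. At the other end, Psmd9 was at 10.7, 11.8 and 10.5 FPKM in control and 11.2, 11.4 and 10.9 FPKM in depleted mice. A2 and A5 were its highest values and A3 its lowest, so the groups overlapped fully. The 2 genes had log2 fold changes of 0.12 (limma adjusted p = 0.632) and 0.02 (limma adjusted p = 0.949).

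The comparison of depleted with control mice asked how RNA of the cortex differed 10 days after depletion, and here how far proteasome RNA did. Most proteasome genes were slightly higher on average in depleted mice, led by Psmb7, Psma4 and Psmb1 of the core, but no single gene passed the test. Of the 34 genes, 0 had an adjusted p under 0.1 in limma, while 0.0278% of all genes tested did, which is 4 genes. An unadjusted p under 0.05 was found for 4 proteasome genes that were higher, against 4.79% of all genes tested, and for 0 that were lower, against 5.74%. The groups did not overlap, with every depleted mouse above every control mouse, in 8 of the 34 genes, a share of 23.5% against 8.21% of all genes tested. With every depleted mouse below, the counts were 0 of 34 and 9.38%. The 8 genes were Psma1, Psma3, Psma4, Psmb1, Psmb7, Psmc4, Psmd7 and Psmd8, and in the other 26 the groups overlapped.

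The 4 genes that passed were Gm20878, Gm21586, BC002163 and 2700060E02Rik, named after their values were seen. Gm20878 and Gm21586 had identical values in every mouse, so the count of 4 holds the same values more than once. None of the 4 encodes a proteasome subunit.

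The log2 fold change was above 0 in 29 of the 34 genes, a share of 85.3% against 48.0% of all genes tested, and this count was also 29 after rescaling to TPM, median-of-ratios scaling and quantile normalization. The median over the 34 genes was 0.092, or 6.57% on the linear scale, and the middle 50% of the genes lay between 0.04 and 0.13. Over all genes tested the median was -0.009, and it was the same in the 5971 genes whose mean FPKM lay in the range of the proteasome genes, of which 47.6% were above 0 and 8.61% had depleted mice above all control mice. Standard errors (SE) of the 34 genes ran from 0.064 to 0.14, so the typical difference was about as large as its own error. The 95% intervals included 0 in 30 genes, and over all 34 they reached from -0.34 to 0.48. With A4 left out, 24 of the 34 genes were above 0.

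**Figure D2:**
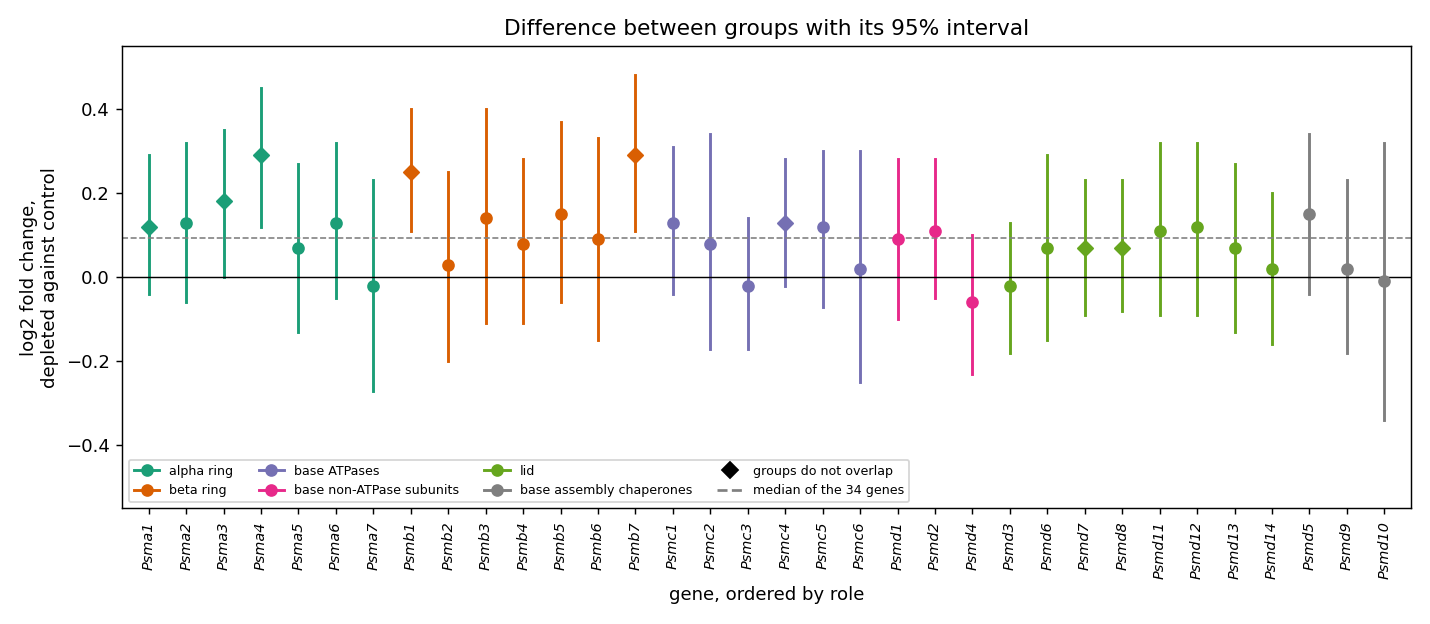
Log2 fold change of each proteasome gene, depleted against control (points), with its 95% interval from limma (bars), coloured by role; diamonds mark the 8 genes whose groups do not overlap. The dashed line is the median of the 34 genes, 0.09, and 30 of the 34 bars cross 0.

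In the alpha ring, which forms the gated entrance of the core, 6 of 7 genes were above 0 with a median of 0.132, or 0.077 without A2. Psma4 encodes an alpha subunit whose tail helps to close the gate. It was at 83.6, 82.8 and 88.4 FPKM in A1 to A3 and at 111, 98.8 and 102 FPKM in A4 to A6. All 3 depleted mice lay above the highest control mouse, A3, and A4 was the highest. Its level was 84.9 ± 3.01 FPKM in control and 104 ± 6.12 FPKM in depleted mice (SD, n = 3 each), with a log2 fold change of 0.29 (limma adjusted p = 0.370, SE 0.072). Psma3, another alpha subunit gene, was at 71.2, 77.6 and 80.3 FPKM and 87.1, 81.8 and 90.7 FPKM. The groups were apart by a narrow gap between A3 and A5, and A6 was the highest. The log2 fold change of Psma3 was 0.18 (limma adjusted p = 0.466, SE 0.076).

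Psma7 had the lowest log2 fold change of the ring. Its levels were 94.4, 88.8 and 103 FPKM in control and 108, 93.1 and 81.9 FPKM in depleted mice. The highest and the lowest of all 6 values, A4 and A6, were both depleted mice, and the groups overlapped. Its log2 fold change was -0.02 (limma adjusted p = 0.961, SE 0.11), and it turned to above 0 without A3 or without A6. Psma1 did not overlap, at 66.7 ± 3.64 FPKM and 72.6 ± 2.98 FPKM (SD, n = 3 each), with a log2 fold change of 0.12. Psma2, Psma5 and Psma6 overlapped, with log2 fold changes from 0.07 to 0.13.

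All 7 genes of the beta ring were above 0, with a median of 0.145, or 0.059 without A2. Without A4 the median was 0.052 and 5 of the 7 were above 0, as Psmb2 and Psmb6 were then below. Psmb7 encodes the catalytic subunit that cuts after basic residues. It was at 128, 123 and 136 FPKM in the control mice A1 to A3 and at 165, 144 and 165 FPKM in the depleted mice A4 to A6. A4 and A6 were nearly equal and A5 lay between them and the highest control mouse, so the groups did not overlap. The means were 129 ± 6.83 FPKM and 158 ± 12.1 FPKM (SD, n = 3 each), and the log2 fold change of 0.29 was the highest of the 34 genes (95% interval 0.11 to 0.48, limma adjusted p = 0.370, SE 0.080). On the linear scale this is 22.6%.

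Psmb1, a beta subunit gene with no cutting site of its own, was at 110.1, 105 and 114 FPKM in control and 131, 131 and 130.1 FPKM in depleted mice. The 3 depleted mice were almost the same and lay above all control mice. Its log2 fold change was 0.25 (95% interval 0.11 to 0.40, limma adjusted p = 0.370, SE 0.064), and the SD of the depleted mice, 0.536 FPKM, was below their expected counting error, as A5 alone had a counting error of 3.49%.

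The other catalytic genes overlapped between the groups. Psmb5, whose subunit cuts after hydrophobic residues and is the target of proteasome inhibitor drugs, was at 85.9, 84.3 and 95.03 FPKM and 109, 87.8 and 99.0 FPKM. A4 and A6 lay above every control mouse and A5 lay below A3. Psmb5 had a log2 fold change of 0.15 (limma adjusted p = 0.593, SE 0.094), and 0.08 without A4. Psmb6, whose subunit cuts after acidic residues, was at 85.4, 78.6 and 82.6 FPKM and 103, 78.7 and 82.5 FPKM. A4 stood alone above the rest, and A5 and A6 lay within the control range. The log2 fold change of Psmb6 was 0.09 (limma adjusted p = 0.787, SE 0.11), and it was -0.03 without A4.

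Psmb2, a structural beta subunit gene, had the lowest log2 fold change of its ring. Its levels were 83.9, 79.3 and 79.0 FPKM in A1 to A3 and 92.1, 70.8 and 85.0 FPKM in A4 to A6. A4 was the highest and A5 the lowest of all 6 mice, so the depleted mice spanned the control mice. The log2 fold change was 0.03 (limma adjusted p = 0.95, SE 0.099). Psmb3 and Psmb4, at 0.14 and 0.08, also overlapped, and each was highest in A4, without which they were at 0.05 and 0.01.

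The ATPases of the base form a ring that pulls proteins into the core, and 5 of the 6 were above 0 with a median of 0.10, or 0.01 without A4. Psmc1, whose tail docks into the alpha ring and helps to open the gate, was at 107, 108 and 110.4 FPKM in control and 131, 110.4 and 117 FPKM in depleted mice. A5 lay just under the highest control mouse, A3, and A4 and A6 lay above all control mice. Psmc1 had a log2 fold change of 0.13 (limma adjusted p = 0.574, SE 0.078), and 0.07 without A4. Psmc3, which also has a docking tail, was at 95.3, 92.0 and 99.7 FPKM and 98.2, 93.5 and 92.2 FPKM. A3 was the highest and the groups overlapped throughout. For Psmc3 the log2 fold change was -0.02 (limma adjusted p = 0.954, SE 0.067).

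Psmc4 was the 1 ATPase gene whose groups did not overlap, at 69.2, 69.0 and 73.1 FPKM in control and 78.3, 76.6 and 76.8 FPKM in depleted mice. The depleted mice lay close together, above A3. Its log2 fold change was 0.13 (limma adjusted p = 0.513, SE 0.064). Psmc2 and Psmc6 had log2 fold changes of 0.08 and 0.02, and in both A4 was the highest of the 6 mice and A5 and A6 lay within or below the control range.

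The other base subunits receive ubiquitinated proteins. Psmd2, a scaffold on which ubiquitin carriers and the deubiquitinase Usp14 dock, was at 85.3, 85.0 and 92.7 FPKM in A1 to A3 and 99.1, 91.2 and 94.5 FPKM in A4 to A6. A5 lay below A3, so the groups overlapped, and A4 was the highest. Psmd4, the gene of a ubiquitin receptor, was at 78.4, 79.2 and 83.1 FPKM and 77.9, 72.2 and 80.2 FPKM. A3 was the highest and A5 the lowest, with A6 inside the control range. The log2 fold changes were 0.11 (limma adjusted p = 0.597, SE 0.071) for Psmd2 and -0.06 (limma adjusted p = 0.775, SE 0.071) for Psmd4, the lowest of the 34 genes. Psmd4 stayed below 0 under each alternative run. Psmd1, the other scaffold of the base, had a log2 fold change of 0.09, or 0.02 without A2.

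In the lid, 7 of 8 genes were above 0, with a median of 0.069 and a range from -0.02 to 0.12. Without A4, 5 of the 8 were above 0, with a median of 0.033. Psmd12, a structural lid gene with the highest log2 fold change of the lid, was at 43.9, 46.6 and 46.3 FPKM in control and 55.8, 46.2 and 47.2 FPKM in depleted mice. A4 stood apart, and A5 and A6 lay near the control mice. The log2 fold change of Psmd12 was 0.12 (limma adjusted p = 0.663, SE 0.089), and 0.03 without A4. Psmd3, another structural lid gene, was at 56.8, 56.0 and 61.02 FPKM and 55.8, 56.5 and 58.4 FPKM. A3 was the highest, and A4 was just below every control mouse. With a log2 fold change of -0.02 (limma adjusted p = 0.920, SE 0.069), Psmd3 was the lowest of the lid.

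Psmd14, the lid enzyme that cuts ubiquitin chains off, was at 58.2, 57.2 and 59.0 FPKM and 62.6, 61.4 and 53.4 FPKM. A6 was the lowest and A4 the highest, and its log2 fold change was 0.02 (limma adjusted p = 0.949). Psmd7, which pairs with the Psmd14 protein, and Psmd8 did not overlap, but by small gaps. Psmd7 was at 69.2, 69.3 and 70.0 FPKM in control and 71.0, 70.1 and 77.8 FPKM in depleted mice, and Psmd8 was at 65.6, 64.5 and 65.9 FPKM and 68.1, 66.2 and 72.1 FPKM. In both, A6 was the highest, and A5 lay within 1 FPKM of A3. Both had a log2 fold change of 0.07. Psmd6, Psmd11 and Psmd13 overlapped, with log2 fold changes from 0.07 to 0.11.

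Of the chaperones of base assembly, Psmd5 was at 23.5, 22.7 and 22.4 FPKM in A1 to A3 and 26.1, 27.1 and 23.4 FPKM in A4 to A6. A6 lay just below A1, and the other depleted mice lay above all control mice. Psmd10, also known as gankyrin, was at 11.6, 13.2 and 13.6 FPKM and 10.4, 12.5 and 15.8 FPKM. Its lowest value was in A4 and its highest in A6, both depleted mice. Psmd5 had a log2 fold change of 0.15 (limma adjusted p = 0.561, SE 0.083) and Psmd10 of -0.01 (limma adjusted p = 0.990, SE 0.14). Psmd10 had the fewest fragments in A5, about 63, and a counting error of 12.6% there.

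**Figure D3:**
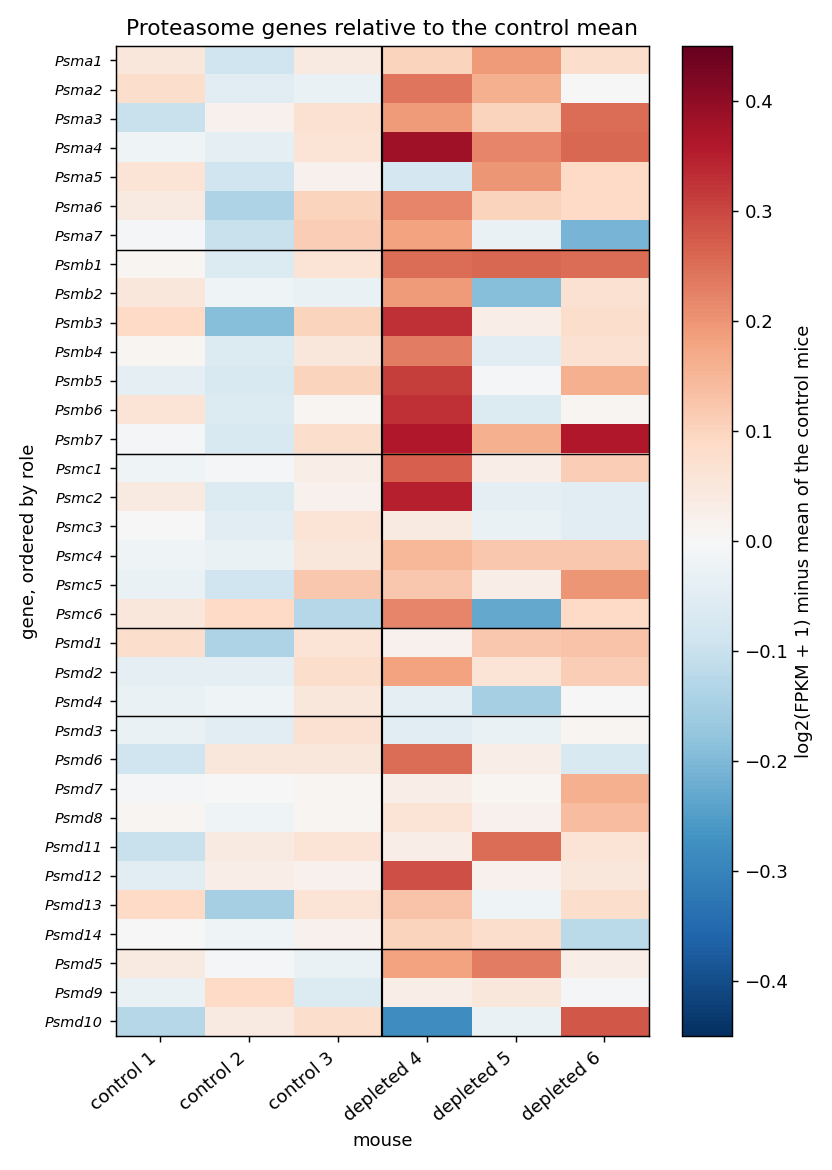
Each proteasome gene in each mouse as log2(FPKM + 1) minus the mean of the control mice, with red above and blue below that mean; genes are grouped by role between black lines, and the vertical line parts control from depleted mice. Of the 34 genes, 30 lie above that mean in A4, 22 in A5 and 26 in A6. Among control mice the counts are 16 in A1, 7 in A2 and 29 in A3, so A3 is nearly as often above it as A4.

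Mice within each group differed in how high their proteasome genes were. Relative to the mean of the control mice, the median of the 34 genes was -0.006, -0.045 and 0.052 in A1 to A3 and 0.183, 0.028 and 0.083 in A4 to A6, on the log2 scale. A4 was the highest, and A5 lay below the control mouse A3, so the groups overlapped in this median. The SD of these medians was 0.049 among control and 0.079 among depleted mice, beside a difference of 0.098 between the means of the groups' medians. A4 held the highest value of all 6 mice in 18 of the 34 genes, A6 in 7 and A5 in 5, and the control mouse A2 held the lowest in 19. Counted against all control mice at once, A4 lay above them in 26 genes, A6 in 18 and A5 in 15. No share of all genes tested is given for single mice, so whether these counts exceed it was not tested.

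Over all genes tested, the medians per mouse lay between -0.010 in A5 and 0.006 in A3, near 0 as TMM scaling holds them. A4 was also the mouse with the highest sum of interferon response markers, 398.37 FPKM, and with RNA of Y-linked genes. Without A4 the median log2 fold change of the 34 genes was 0.08, and without A5, the shallowest library, it was 0.125. The coefficient of variation of the 34 genes had a median of 5.08% among control and 7.52% among depleted mice. On the log2 scale the spread was wider among depleted mice in 21 of the 34 genes, beside 75.8% of all genes tested.

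The 20S core and the 19S particle were set side by side. In the 14 core genes 13 were above 0, with a median log2 fold change of 0.133, and in the 17 genes of the 19S particle without chaperones 14 were above 0, with a median of 0.074. Without A2 the medians were 0.071 and 0.066, nearly the same, and without A4 they were 0.086 (11 of 14 above 0) and 0.034 (10 of 17). All 4 genes with an unadjusted p under 0.05, against 4.79% of all genes tested, and 5 of the 8 whose groups did not overlap belonged to the core. The share without overlap was 35.7% in the core and 17.6% in the 19S particle, against 8.21% of all genes tested. The median of the core genes relative to the control mean was 0.027, -0.065 and 0.058 in A1 to A3 and 0.235, 0.10 and 0.085 in A4 to A6, with the depleted mice above. For the 19S particle it was -0.018, -0.022 and 0.051 and 0.120, 0.020 and 0.083, with A5 below A3.

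Summed FPKM of the core genes divided by that of the 19S genes, a ratio chosen after the values were seen, was 1.12, 1.07 and 1.11 in A1 to A3 and 1.19, 1.16 and 1.14 in A4 to A6. Each depleted mouse was above each control mouse, and the ratio does not change with the scaling of a library. Whether the core and the 19S particle differed in response was not tested.

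The inducible subunits take the places of the constitutive catalytic ones. Psmb8, which replaces Psmb5, was at 2.38, 1.11 and 2.17 FPKM in control and 13.1, 2.97 and 4.63 FPKM in depleted mice. A4 stood far above the others and A5 was just above A1, so the groups did not overlap. Counting error was estimated only for the constitutive genes, so whether the gap between A5 and A1 exceeds it was not tested. As a share of Psmb5, Psmb8 was at 2.77, 1.32 and 2.28% in A1 to A3 and 12, 3.38 and 4.68% in A4 to A6. The mean log2 ratio was 1.5 higher in depleted mice (p = 0.10 in an exact two-sided permutation test, adjusted p = 0.30 over the 3 ratios, n = 3 each), where 0.1 is the smallest p that 3 mice against 3 allow. Without A4 the difference was 0.97.

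Psmb9, which replaces Psmb6, was at 0.75, 0.97 and 1.81 FPKM and 3.93, 1.73 and 0.77 FPKM, or 0.878, 1.23 and 2.19% and 3.80, 2.20 and 0.934% of Psmb6. A4 was the highest, A5 was level with A3, and A6 lay among the lowest. Its log2 ratio was 0.57 higher in depleted mice (p = 0.40 in the exact permutation test, adjusted p = 0.60), and 0.10 higher without A4. Psmb10, which replaces Psmb7, was the most abundant inducible subunit gene, at 24.1, 19.1 and 22.9 FPKM and 35.3, 22.2 and 25.2 FPKM, or 18.9, 15.5 and 16.8% and 21.4, 15.4 and 15.2% of Psmb7. As a share of Psmb7, A4 was the highest and A6 the lowest, and the difference in log2 ratio was 0.01 (p = 1.0 in the exact permutation test, adjusted p = 1.0), or -0.15 without A4. In every mouse the constitutive RNA was the more abundant of each pair.

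**Figure D4:**
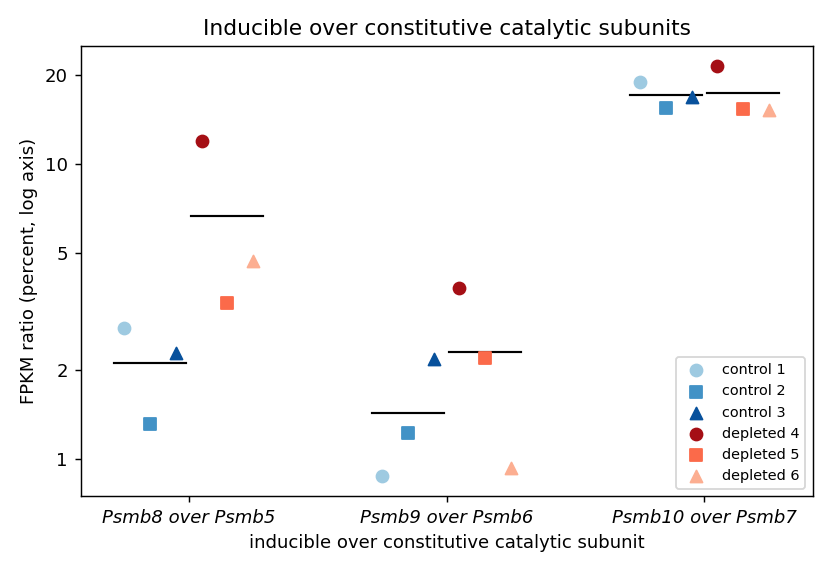
FPKM of each inducible catalytic subunit gene as a percent of the constitutive one it replaces (log axis), in each mouse, with black lines at the group means. Psmb8 over Psmb5 runs from 1.32% to 2.77% in control and from 3.38% to 12% in depleted mice, and the other ratios overlap between the groups.

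Of the 39 other genes of the pathway that were listed, 36 were tested. An adjusted p under 0.1 was reached by 0 of the 36 in limma, and 7 that were higher and 0 that were lower had an unadjusted p under 0.05, against 4.79% and 5.74% of all genes tested. Their median log2 fold change was 0.13, with 29 above 0, a share of 80.6% against 48.0%, and the median was 0.078 without A4. Psma8 and Psmb11, subunits of testis and thymus, were below the filter, at no more than 0.42 and 0.33 FPKM in any mouse, and Paaf1 was not analysed here.

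Psme1 encodes part of an interferon-inducible cap of the core. It was at 31.6, 31.7 and 34.7 FPKM in control and 53.9, 38.3 and 40.6 FPKM in depleted mice. All depleted mice were above all control mice, with A4 the highest. Its log2 fold change was 0.41 (limma adjusted p = 0.378, SE 0.13), and 0.27 without A4. Psmb8 had a log2 fold change of 1.27 (limma adjusted p = 0.396, SE 0.42), and 0.74 without A4. All 5 genes of the inducible list, with Psmb9, Psmb10 and Psme2, were above 0, with a median of 0.413, or 0.13 without A4.

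Uchl5, a deubiquitinase that binds the 19S base, was at 21.2, 21.6 and 21.2 FPKM in A1 to A3 and 33.4, 28.4 and 28.0 FPKM in A4 to A6. The control mice were nearly equal and every depleted mouse lay well above them. The means were 21.4 ± 0.241 and 29.9 ± 3.01 FPKM (SD, n = 3 each), a log2 fold change of 0.46 (limma adjusted p = 0.293, SE 0.089), the lowest adjusted p among the pathway genes tested. Ube3c, a ubiquitin ligase that binds the proteasome, was at 20.1 ± 0.945 and 23.5 ± 1.43 FPKM (SD, n = 3 each), with no overlap and a log2 fold change of 0.22 (limma adjusted p = 0.438). Usp14, the other deubiquitinase of the list, was at -0.03. Adrm1, the receptor to which Uchl5 binds, had a log2 fold change of 0.09 (limma adjusted p = 0.762), or near 0 without A4, and overlapped between the groups.

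Among factors that build the core, Pomp, the chaperone of beta ring maturation, was at 111, 117 and 128 FPKM in control and 140.0, 149 and 141 FPKM in depleted mice. A5 was the highest, and all depleted mice lay above A3, the highest control mouse. Pomp had a log2 fold change of 0.27 (limma adjusted p = 0.370, SE 0.074). The 4 alpha ring chaperone genes Psmg1 to Psmg4 had log2 fold changes from 0.01 for Psmg3 to 0.37 for Psmg1, and all overlapped. Psmg1 was at 0.21 without A4, and Psmg3 at -0.10 without A2. All 5 assembly factors tested were above 0, with a median of 0.274. Among regulators and inhibitors, AI314180, a proteasome adaptor now named Ecpas, was at 18.3 ± 1.05 and 22.5 ± 1.57 FPKM (SD, n = 3 each), with no overlap and a log2 fold change of 0.29 (limma adjusted p = 0.378). Psme3, Psme4 and Psmf1 were between 0.02 and 0.06.

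Shfm1, the small lid subunit gene now named Sem1, was at 101, 97.6 and 97.8 FPKM and 99.2, 119 and 125 FPKM. A5 and A6 lay above the control mice and A4 within them. It had a log2 fold change of 0.20 (limma adjusted p = 0.492, SE 0.092).

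Genes upstream of the proteasome varied in direction. Nfe2l1, a transcription factor known to raise proteasome genes when the proteasome is impaired, was at 94.2, 98.5 and 97.5 FPKM in A1 to A3 and 78.3, 94.4 and 92.6 FPKM in A4 to A6. A4 was the lowest, and A5 was level with A1. Its log2 fold change was -0.13 (limma adjusted p = 0.610, SE 0.085), or -0.05 without A4. Ngly1, which removes sugars from the Nfe2l1 protein, was at 0.25 (limma adjusted p = 0.580), or 0.08 without A4, and Ddi2, the protease that cuts that protein, was at 0.28 (limma adjusted p = 0.517), or 0.15 without A1 and 0.41 without A2. Both overlapped between the groups.

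The 6 ubiquitin shuttle genes ranged from -0.13 for Ubqln2 (limma adjusted p = 0.595) to Ddi2. Of the 4 ubiquitin genes all were above 0, and Rps27a, which encodes ubiquitin fused to a ribosomal protein, was at 392.61, 346 and 418 FPKM and 512, 413 and 483 FPKM. A5 lay below A3, and the log2 fold change was 0.28 (limma adjusted p = 0.414, SE 0.10). Vcp, the unfoldase that hands proteins to the proteasome, was at 0.05, and its cofactors Ufd1l and Nploc4 at 0.10 and -0.10 (adjusted p = 0.637 and 0.746 in limma).

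Other large complexes were described in the same way for comparison. The COP9 signalosome, which resembles the lid in its make-up, had a median log2 fold change of 0.082 over 9 genes, with 5 above 0 and 1 whose groups did not overlap with depleted mice above. The CCT chaperonin, a ring that folds actin and tubulin, had a median of 0.132 over 8 genes, all above 0, with no overlap in 6. In the 77 cytosolic ribosomal protein genes the median was 0.127, with 66 above 0 and 14 without overlap, and in the 80 genes of oxidative phosphorylation it was 0.03, or -0.004 after quantile normalization and -0.02 after the length correction, with 6 without overlap above and 8 below. Over all genes tested, 8.21% had no overlap with depleted mice above and 9.38% with them below, and the share above was 11.1% for COP9, 75% for CCT, 18.2% for ribosomal protein and 7.50% for oxidative phosphorylation genes. Without A2 the ribosomal median was 0.066, with 58 genes above 0, and without A4 the COP9 median was 0.034. An adjusted p under 0.1 was reached by 0 genes of these 4 lists in limma, and an unadjusted p under 0.05 by 0, 3, 19 and 4 genes that were higher and 1, 0, 0 and 8 that were lower, in the order given, against 4.79% and 5.74% of all genes tested.

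The medians of these complexes in each mouse showed where they lay. CCT genes had medians of -0.007, -0.061 and 0.061 in A1 to A3 and 0.171, 0.105 and 0.154 in A4 to A6, relative to the control mean, with the depleted mice above. Ribosomal protein genes were at 0.007, -0.117 and 0.102 and 0.202, 0.026 and 0.158, with A5 below A3, as for the proteasome. COP9 genes were at -0.010, -0.059 and 0.067 and 0.066, -0.052 and 0.035, with no separation. The proteasome genes were thus not the only list of a large complex with most genes above 0, and A2 was the lowest mouse in each of the 4 lists.

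**Figure D5:**
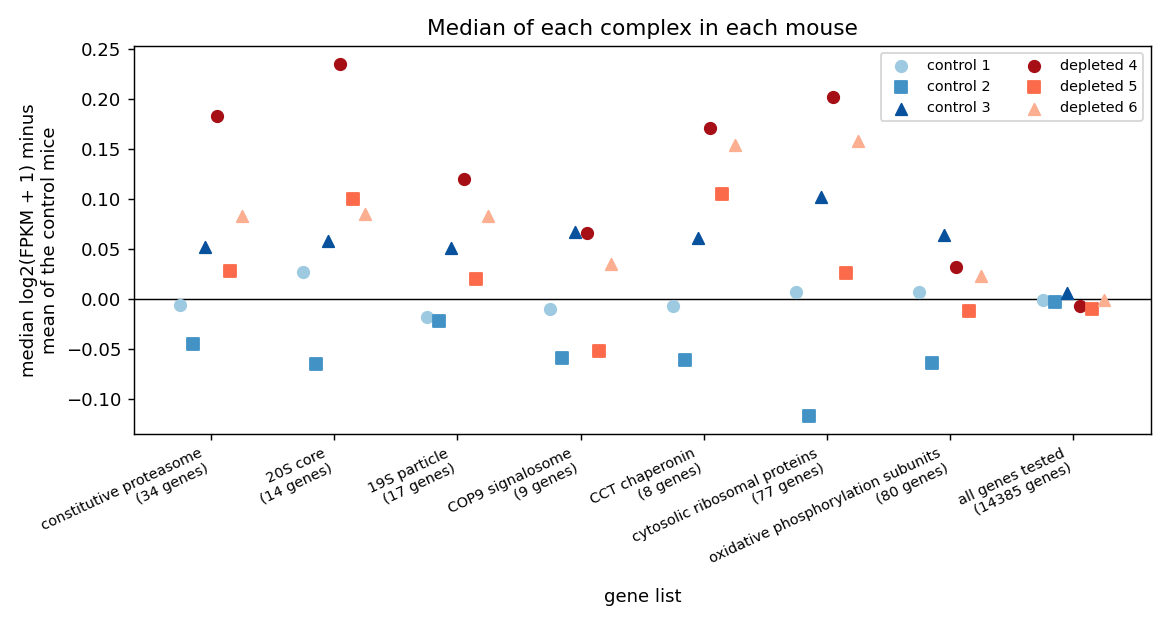
Median over the genes of each list of log2(FPKM + 1) minus the mean of the control mice, one point per mouse, control mice in blue and depleted mice in red. Depleted mice lie above control mice for the 20S core and the CCT chaperonin, overlap with them in the other lists, and all mice lie near 0 over all genes tested.

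Promoter sequence is a feature the members may share. RefSeq windows of GRCm38.p6, from 250 bases before to 50 after the gene start, were found for 28 of the 34 genes, with 30 windows in all as Psma6 and Psmc2 had more than 1. Psmb1, Psmb2, Psmb7, Psmc3, Psmd3 and Psmd7 had no window. Both strands were searched for the letters of 4 motifs. TGACNNNGC, the core of the antioxidant response element that Nfe2l1 and Nfe2l2 bind, was in the windows of 5 genes, 16.7% of the windows against 12.4% of the 32851 windows of all genes. CCGGAAG, a core bound by ETS factors, was in those of 10 genes, 36.7% against 8.86%. GGGCGG, the GC box, was in 18 genes (60.0% against 35.7%), and CCAAT in 11 (36.7% against 37.4%). No motif's letters contain another's, and matches of different motifs may overlap. A match is a description of letters, not of binding.

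The 5 genes with TGACNNNGC were Psmb5, Psmb6, Psmd9, Psmc6 and Psmd12, and its first base lay 47, 9, 31, 227 and 247 bases before the start. The last 100 bases before the start are shown for the 3 in which the match lay closest, with the match in capitals, each 5′ to 3′ on the strand of the gene. They are Psmb5 (chr14:54617996-54618095, minus strand), Psmb6 (chr11:70525257-70525356, plus strand) and Psmd9 (chr5:123228090-123228189, plus strand).
Psmb5: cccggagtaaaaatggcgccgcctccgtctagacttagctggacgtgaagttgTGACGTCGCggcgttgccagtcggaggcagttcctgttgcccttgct
Psmb6: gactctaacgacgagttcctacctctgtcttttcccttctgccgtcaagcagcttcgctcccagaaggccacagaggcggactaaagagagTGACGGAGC
Psmd9: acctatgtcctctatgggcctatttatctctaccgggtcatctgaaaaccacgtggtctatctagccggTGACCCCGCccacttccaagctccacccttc
The RNA of these 3 genes overlapped between the groups, with the log2 fold changes of 0.15, 0.09 and 0.02 given above.

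The ETS core stood within 30 bases of the start in Psmc1, Psmd2 and Psmd12, among other members, here as CTTCCGG, its letters on the other strand. These examples were chosen after their values were seen, as genes with the highest log2 fold change of a role group that have a window with this core. They are Psmc1 (chr12:100110102-100110201, plus strand), Psmd2 (chr16:20651552-20651651, plus strand) and Psmd12 (chr11:107479428-107479527, plus strand), with the match in capitals.
Psmc1: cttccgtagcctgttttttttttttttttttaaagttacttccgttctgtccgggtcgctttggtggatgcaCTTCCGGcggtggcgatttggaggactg
Psmd2: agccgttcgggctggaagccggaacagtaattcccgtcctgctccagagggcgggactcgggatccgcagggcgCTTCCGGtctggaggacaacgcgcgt
Psmd12: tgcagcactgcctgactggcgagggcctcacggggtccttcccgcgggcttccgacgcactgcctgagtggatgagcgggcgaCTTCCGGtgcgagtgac
In these the first base of the match lay 28, 26 and 17 bases before the start, and the genes had log2 fold changes of 0.13, 0.11 and 0.12.

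Some members share sequence with other genes, so that their reads could be split. Of the 34, 10 share at least 1 window of 75 bases with another annotated gene, and 6 share over 10% of their windows: Psmb5 at 40%, Psma5 at 39.8%, Psmb3 at 33.1%, Psma3 at 21.5%, Psmd2 at 15.1% and Psma4 at 12.9%. Of the genes that share them, the 1 found in the table, Gm3375, was at 0 in every mouse. Psmb1 and Psmb7 share no window with another gene. Exons of 9 members overlap another gene. For Psmb7, Psmc3 and Psmd13 the neighbour lies antisense and reached 12 FPKM (Nek6), 10.5 FPKM (Slc39a13) and 44.5 FPKM (Sirt3), and for Psma4 it was AY074887, at no more than 2.43 FPKM. Whether the authors' counting used strand is not given in the sources used here, and without strand the reads of such pairs cannot be told apart.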

How the data were processed

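The authors sequenced poly(A) libraries of total RNA (75 bp paired-end), aligned reads with TopHat and quantified known transcripts with RSEM. The values they deposited are FPKM per gene and mouse, already TMM-scaled and given to 2 decimals. The submitters' processing notes name build mm9, and versions are not given in the sources used here.

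R 4.3.3 with limma 3.58.1 compared 14385 of 23366 genes, those whose mean FPKM was 0.5 or more (log2(FPKM + 1), lmFit, eBayes with trend, Benjamini-Hochberg adjustment, threshold 0.1), with no covariate. Ratios were compared by an exact permutation test. Python 3.11.15 with matplotlib 3.10.9, scipy 1.17.1, pandas 2.3.3 and numpy 2.4.6 served for the rest. Depth, length, GC content and shared windows used GENCODE M21 (GRCm38) by symbol. The depth estimate and limma were tested on simulated data.

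Members and lists were chosen with earlier results of these data known. Named were the catalytic genes, the highest and lowest log2 fold change of each role, genes with an unadjusted p under 0.05, and the highest and lowest FPKM; of other pathway lists, genes with an unadjusted p under 0.05 or else the highest and lowest, and Nfe2l1; any other gene was named after its values were seen. Alternatives were other pseudocounts, filters, scalings and eBayes options, array weights, a threshold of 0.05, each mouse left out, and, chosen after seeing the data, GC-content and length corrections.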

Additional observations from a re-analysis of the deposited data

How the results depend on the processing

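Under each alternative run, 0 of the 34 proteasome genes had an adjusted p under 0.1 in limma, with 3 to 5 at an unadjusted p under 0.05 that were higher and 0 that were lower, while the share of all genes tested ran from 2.5% to 6.92% higher and from 2.98% to 7.38% lower. Their lowest adjusted p was 0.195, for Psmb7 without A5, against up to 0.892 for that gene. The median log2 fold change of the 34 genes stayed above 0, from 0.067 without A2 to 0.125 without A5 or A6, and 24 to 31 genes were above 0. The number of genes that passed among all tested was 2 in eBayes without trend and 20 with array weights, against 4, and 2 to 29 with 1 mouse left out. The count of proteasome genes without overlap with depleted mice above was 8, but 11 after rescaling to TPM (beside 7.97% of all genes tested), and 9 to 15 with 1 mouse left out, when the share of all genes tested was between 11% and 16.0%.

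With 1 mouse left out, the log2 fold change moved by over 1.5 times or turned sign in 27 of the 34 proteasome genes and 28 of the 36 other pathway genes, and it turned sign in 12 and 7. The cause was not tested. With array weights, Psmb2 was -0.039 and Psmd10 0.066. After the GC-content correction Psmc3 was 0.020, Psmd3 0.065 and Psmd14 -0.01, and after the length correction Psmb2 was -0.008. Both corrections were chosen after seeing the data. With 1 mouse left out, the ranges were -0.123 to 0.076 for Psma7, -0.056 to 0.130 for Psmb2, -0.028 to 0.166 for Psmb6, -0.043 to 0.014 for Psmc3, -0.048 to 0.012 for Psmd3, -0.007 to 0.071 for Psmd9 and -0.154 to 0.127 for Psmd10. Psmc2, Psmc6, Psmd6, Psmd13 and Psmd14 also turned to below 0 with 1 mouse left out, Psmc6 as far as -0.07 without A4. The log2 ratio difference ranged from -0.151 to 0.094 for Psmb10 over Psmb7, from 0.97 to 1.88 for Psmb8 over Psmb5 and from 0.10 to 1.12 for Psmb9 over Psmb6. Of the values compared for counts, ratios and the named members, 420 kept their sign or, if counts, stayed within 1.5 times, 19 turned sign, and 6 counts were larger and 2 smaller than that. No paired analysis was possible because the labels give no litter or pairing of the mice. Depth limits A5 most, and the depth estimates of A5 and A1 are uncertain. Those of A2 and A3 were not checked at a higher depth.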
